A study of Canis lupus familiaris with 6 samples.

Results

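The genes described here make prostaglandins, bind them or inactivate them: the cyclooxygenases PTGS1 and PTGS2, the synthases PTGES, PTGES2, PTGES3 and PTGIS, the receptors PTGER2, PTGER4 and PTGFR, and the dehydrogenase HPGD. They were chosen by name, and 9 of the 10 had a row among the 23299 genes of the deposited table. PTGS1 was not analysed here. Messenger RNA was measured in stem cells isolated from dog fat, cells of the connective tissue that can become adipocytes, after 14 days of adipogenic induction. In the BPA group (n = 3 libraries) the medium held bisphenol A (BPA) at 1 µM, a plastics chemical that can bind oestrogen receptors. In the control group (n = 3) the solvent DMSO took its place. Cells of both groups grew for 2 days before induction, and both media held the glucocorticoid dexamethasone (1 µM), the PPARG agonist rosiglitazone (200 nM), which drives adipogenesis, and insulin (10 µg/mL). The labels give no sex, age or number of donor dogs. They do not say whether replicates were separate cultures, so p-values measure only the spread between these libraries, which may be technical.

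Prostaglandins are short-lived lipid signals made from arachidonic acid, which phospholipases release from membranes. A cyclooxygenase turns the acid into prostaglandin H, PTGS1 in a steady manner and PTGS2 after induction by cytokines and growth factors, and terminal synthases convert that intermediate into prostaglandin E (PGE), prostacyclin and others. The products leave the cell and act on G protein-coupled receptors before HPGD oxidises them. In fat, PGE is known to restrain lipolysis, and prostaglandin F is known to block adipogenesis through PTGFR. Glucocorticoids, which both media held, are known to repress PTGS2.

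All 9 genes were transcribed in every library. Levels are given in TPM, the abundance of a transcript per unit of its length as a share of the library, which allows genes to be compared. PTGES3 stood highest at a mean of 71.9 TPM over the 6 libraries, followed by PTGIS at 55.6 TPM and PTGES at 48.6 TPM. The range of PTGIS overlapped those of PTGES3 and PTGES, which did not overlap each other, and all 3 lay above HPGD at 23.7 TPM in every library. HPGD was in turn above PTGES2 in 5 of 6 libraries. PTGES2 at 14.4 TPM and PTGS2 at 14.0 TPM could not be ordered, since PTGES2 was the higher in 3 of 6 libraries. The receptors came last and apart from the enzymes, with PTGER4 at 2.25 TPM, PTGFR at 1.49 TPM and PTGER2 at 1.41 TPM, and with overlapping ranges among the 3. PTGIS and PTGER4 varied most between libraries, by 2.32-fold and 2.90-fold from the lowest to the highest, against 1.38-fold for PTGES and 1.39-fold for PTGES3.

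**Figure D1:**
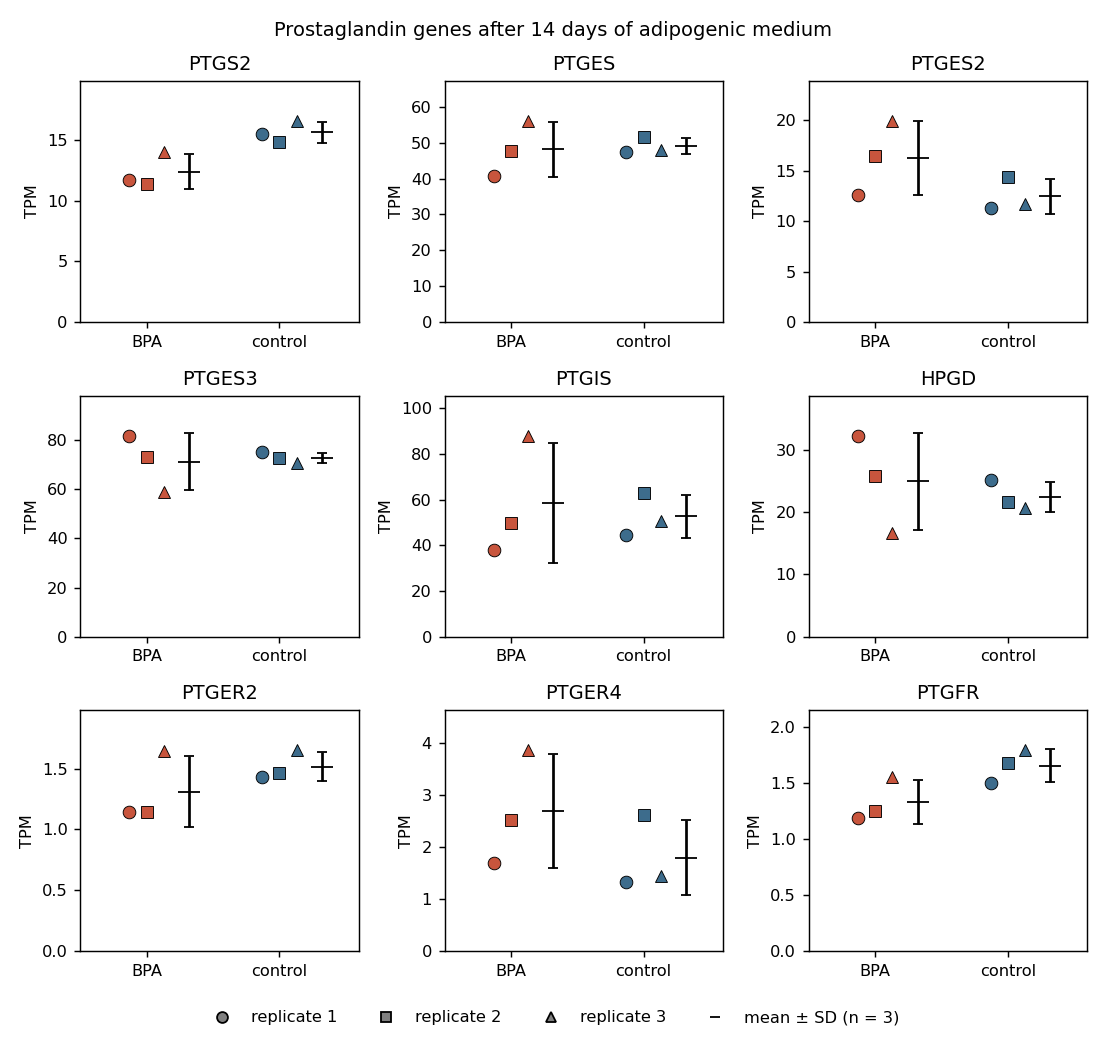
Abundance in TPM (vertical axes, from 0) of the 9 genes in the 3 BPA libraries (red) and the 3 control libraries (blue), with symbols for replicate number and a bar for mean ± SD. In PTGS2 every BPA library lies below every control library, from 11.4 to 14.1 TPM against 14.9 to 16.6 TPM; in the other 8 genes the groups overlap.

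The libraries differed along 1 main axis that did not follow the treatment. Over the 12277 genes tested, those whose log2(TPM + 1) averaged 1 or more, the first principal component held 79.8% of the variance, with BPA replicate 3 at 61.1, control replicate 2 at 11.3 and the other 4 libraries from -29.9 to -0.10. BPA replicate 3 thus stood apart, and the changes of the 9 genes are given with and without it. The second component held 7.44% of the variance and separated the groups. BPA replicates 1, 2 and 3 were at 14.6, 9.18 and 1.68 on it, and control replicates 1, 2 and 3 at -8.26, -5.62 and -11.6. Across the 12277 genes limma with Benjamini-Hochberg adjustment called 0 (0% of those tested), and 439 (3.58%) had an unadjusted p under 0.05. The median log2 change over all tested genes was 0.03.

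None of the 9 genes passed the test, with adjusted p-values from 0.901 to 0.955 by limma. With BPA, 4 of the 9 had a mean above control and 5 a mean below it, with a median log2 change of -0.04. Of all tested genes 56.6% had a mean above control. At an unadjusted p under 0.05 there were 0 higher, against 1.87% of all tested genes, and 1 lower, PTGS2, against 1.70% of all. PTGS2 was also the 1 gene of the 9 whose groups did not overlap, in the lower direction, as was the case for 3.98% of all tested genes; no gene of the 9 lay without overlap in the higher direction, against 5.38% of all.

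PTGS2, the inducible cyclooxygenase, lay lower in the BPA libraries. It stood at 11.7, 11.4 and 14.1 TPM in BPA replicates 1, 2 and 3, against 15.5, 14.9 and 16.6 TPM in control replicates 1, 2 and 3. The highest BPA value, in replicate 3, came close to the lowest control value, in replicate 2. Means were 12.4 ± 1.45 TPM with BPA and 15.7 ± 0.86 TPM in control (SD, n = 3 each), a log2 change of -0.32 (SE 0.11; limma unadjusted p = 0.0301, adjusted p = 0.901). An exact two-sided permutation test gave p = 0.1, the smallest that 3 against 3 libraries allow. Without BPA replicate 3 the log2 change was -0.41 (SE 0.08, unadjusted p = 0.00359, adjusted p = 0.577), and leaving out any of the other 5 libraries took the unadjusted p above 0.05. In whole-culture RNA, fewer cells of a type and less RNA per cell cannot be told apart. Of the 8 adipocyte markers, ADIPOQ, FABP4, PLIN1, CIDEC and CD36 lay above control without overlap, against 5.38% of all tested genes, and LEP below, against 3.98%. LPL and PLIN4 overlapped, and none of the 8 passed the test (limma adjusted p = 0.901 for each). Their summed level was 640 to 900 TPM in BPA libraries and 608 to 720 TPM in control libraries, and none was at 0. Their part in the PTGS2 difference was not tested.

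The terminal synthases did not share a direction. PTGES, the inducible microsomal PGE synthase that is coupled to PTGS2, stood at 40.6, 47.8 and 56.0 TPM in BPA replicates 1, 2 and 3, against 47.4, 51.6 and 48.1 TPM in control replicates 1, 2 and 3. BPA replicate 1 lay below the control libraries, BPA replicate 3 above them and BPA replicate 2 among them, with a log2 change of -0.04 (SE 0.13, limma adjusted p = 0.947) that was -0.15 without BPA replicate 3 and 0.08 without BPA replicate 1. It thus lacked the separation seen in PTGS2, although a difference between these 2 changes was not tested. PTGES2, a second membrane-associated PGE synthase, stood at 12.6, 16.4 and 19.9 TPM in BPA replicates 1, 2 and 3, against 11.3, 14.4 and 11.7 TPM in control replicates 1, 2 and 3. Its groups overlapped through BPA replicate 1 and control replicate 2. The log2 change of 0.35 (SE 0.19, adjusted p = 0.901) became 0.20 without BPA replicate 3 (SE 0.16) and 0.51 without BPA replicate 1 (SE 0.15). PTGES3, the cytosolic PGE synthase that is better known as the HSP90 cochaperone p23, stood at 81.7, 73.0 and 58.9 TPM in BPA replicates 1, 2 and 3, against 74.9, 72.6 and 70.5 TPM in control replicates 1, 2 and 3. The control values lay within the spread of the BPA values, with a log2 change of -0.04 (SE 0.13) that was 0.09 without BPA replicate 3.

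PTGIS, which makes prostacyclin, had the widest spread of the synthases. It stood at 37.8, 49.8 and 88.0 TPM in BPA replicates 1, 2 and 3, against 44.6, 62.7 and 50.6 TPM in control replicates 1, 2 and 3. The highest and the lowest of the 6 values both came from BPA libraries. Its log2 change of 0.08 (SE 0.32, limma adjusted p = 0.955) turned to -0.26 (SE 0.19) without BPA replicate 3, to -0.03 without control replicate 1 and to -0.0086 when each library was centred on its median. PTGIS and PTGES put the 6 libraries in the same order, with BPA replicate 3 highest, then control replicates 2 and 3, BPA replicate 2, control replicate 1 and BPA replicate 1, as did 237 other tested genes (1.93%). BPA replicate 3 was the highest or lowest of the 6 libraries for 81.2% of all tested genes. Of the 9 stromal fibroblast markers with a row, 6 were also highest there: the collagens COL1A1, COL1A2 and COL3A1 with PDGFRA, PDGFRB and ENG. DCN, LUM and NT5E were lowest in that library. The summed level of the 9 was 9848 to 42110 TPM in BPA libraries and 8760 to 17870 TPM in control libraries, with the top of each range in BPA replicate 3 and control replicate 2, and none was at 0. COL1A1, the main chain of type I collagen, reached 24500 TPM in BPA replicate 3 and 8114 TPM in control replicate 2. Their part in the PTGIS values was not tested.

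As shares of the summed TPM of the 4 synthases, PTGES3 and PTGIS traded places in BPA replicate 3. PTGIS made up 39.5% and PTGES3 26.4% there, against 21.9% and 47.3% in BPA replicate 1 and from 25.0% to 31.2% and 36.1% to 42.0% in control libraries. PTGES2 made up 7.28% to 8.93% in BPA libraries and 6.32% to 7.15% in control libraries, and PTGES 23.5% to 25.6% in BPA libraries and 25.6% to 26.6% in control libraries, each without overlap. These are 2 of 5 quantities without overlap among 19 shares, ratios and sums computed after values had been seen, and none was tested.

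HPGD, the dehydrogenase that starts prostaglandin breakdown, had its highest value in BPA replicate 1 and its lowest in BPA replicate 3, where PTGIS and PTGES had their lowest and highest. It stood at 32.2, 25.8 and 16.7 TPM in BPA replicates 1, 2 and 3, against 25.1, 21.6 and 20.6 TPM in control replicates 1, 2 and 3. BPA replicates 1 and 2 were the highest of all 6 libraries and BPA replicate 3 was the lowest. The log2 change was 0.10 (SE 0.24, limma adjusted p = 0.917) with all libraries, 0.35 (SE 0.14) without BPA replicate 3 and -0.10 (SE 0.21) without BPA replicate 1. The TPM ratio of PTGES to HPGD, of a synthesising to an inactivating enzyme, was 1.26, 1.85 and 3.36 in BPA replicates 1, 2 and 3, beside 1.89, 2.39 and 2.34 in control replicates 1, 2 and 3, so that the BPA libraries again enclosed the control range.

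**Figure D2:**
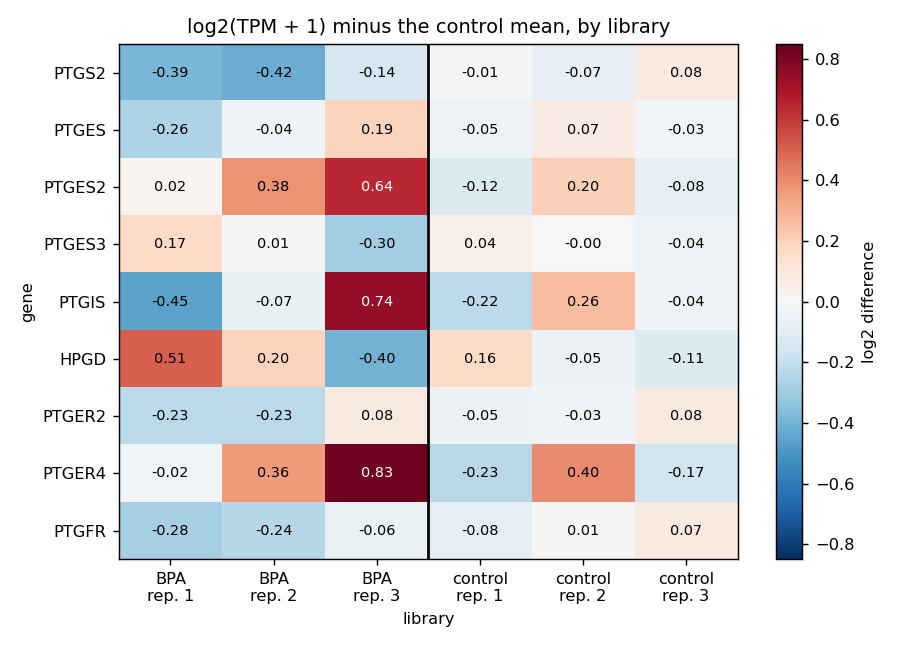
Difference of log2(TPM + 1) from the control mean for 9 genes (rows) in each library (columns, BPA left of the line and control right of it), with red for higher and blue for lower. BPA replicate 3 holds the largest positive values, 0.83 for PTGER4, 0.74 for PTGIS and 0.64 for PTGES2, and the lowest HPGD, at -0.40, while PTGS2 is below 0 in all 3 BPA libraries.

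The receptors differed in direction too. PTGER4, a PGE receptor that raises cyclic AMP, stood at 1.70, 2.53 and 3.87 TPM in BPA replicates 1, 2 and 3, against 1.33, 2.63 and 1.44 TPM in control replicates 1, 2 and 3. Every BPA library lay above control replicates 1 and 3, while control replicate 2 exceeded BPA replicates 1 and 2. The log2 change of 0.39 (SE 0.27, limma adjusted p = 0.901) was the largest of the 9 genes in size and became 0.17 (SE 0.24) without BPA replicate 3, 0.59 without BPA replicate 1 and 0.59 without control replicate 2.

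PTGER2, the other PGE receptor that raises cyclic AMP, stood at 1.14, 1.14 and 1.65 TPM in BPA replicates 1, 2 and 3, against 1.43, 1.46 and 1.65 TPM in control replicates 1, 2 and 3. BPA replicates 1 and 2 lay below all control libraries, and BPA replicate 3 was level with the highest control library. Its log2 change was -0.13 (SE 0.12). Without BPA replicate 3 it was -0.23 (SE 0.08), and without BPA replicates 1 or 2 it was -0.08. PTGFR, the receptor of prostaglandin F, showed the same arrangement, at 1.19, 1.25 and 1.55 TPM in BPA replicates 1, 2 and 3 against 1.50, 1.68 and 1.79 TPM in control replicates 1, 2 and 3. Only BPA replicate 3 reached the control range, just above control replicate 1, and the log2 change was -0.19 (SE 0.10, limma adjusted p = 0.901), and -0.26 (SE 0.09) without that library. All 3 receptors had few transcripts, and the pseudocount of 1 understates their fold changes. As ratios of mean TPM, BPA over control, the changes were 1.50 for PTGER4, 0.87 for PTGER2 and 0.80 for PTGFR.

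Set among the 8 prostanoid receptor genes with a row, PTGER4 held a larger share in every BPA library. It made up 11.9%, 12.6% and 11.9% of their summed TPM in BPA replicates 1, 2 and 3, against 7.13%, 9.40% and 6.73% in control replicates 1, 2 and 3. The prostacyclin receptor PTGIR held 23.4%, 28.1% and 27.1% in the same BPA libraries and 30.7%, 28.7% and 29.1% in the control libraries, a smaller share in every BPA library. The most abundant receptor transcript in all libraries but BPA replicate 3 was that of the prostaglandin D receptor PTGDR, with 26.2% to 36.4% in BPA libraries and 30.6% to 34.2% in control libraries. The thromboxane receptor TBXA2R ranged from 11.4% to 23.6% in BPA libraries and 11.6% to 19.8% in control libraries. Summed over the 8 genes, receptor transcripts amounted to 14.3, 20.1 and 32.4 TPM in BPA replicates 1, 2 and 3, beside 18.7, 28.0 and 21.5 TPM in control replicates 1, 2 and 3. PTGER1 and PTGER3, the PGE receptors that signal through calcium and through inhibition of cyclic AMP, stayed under 1 TPM in every library. PTGER3 held 0.33% to 0.56% in BPA libraries and 0.18% to 0.31% in control libraries. The shares of PTGER4, PTGIR and PTGER3 are the rest of the 5 quantities without overlap among the 19 computed after values had been seen. None was tested.

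**Figure D3:**
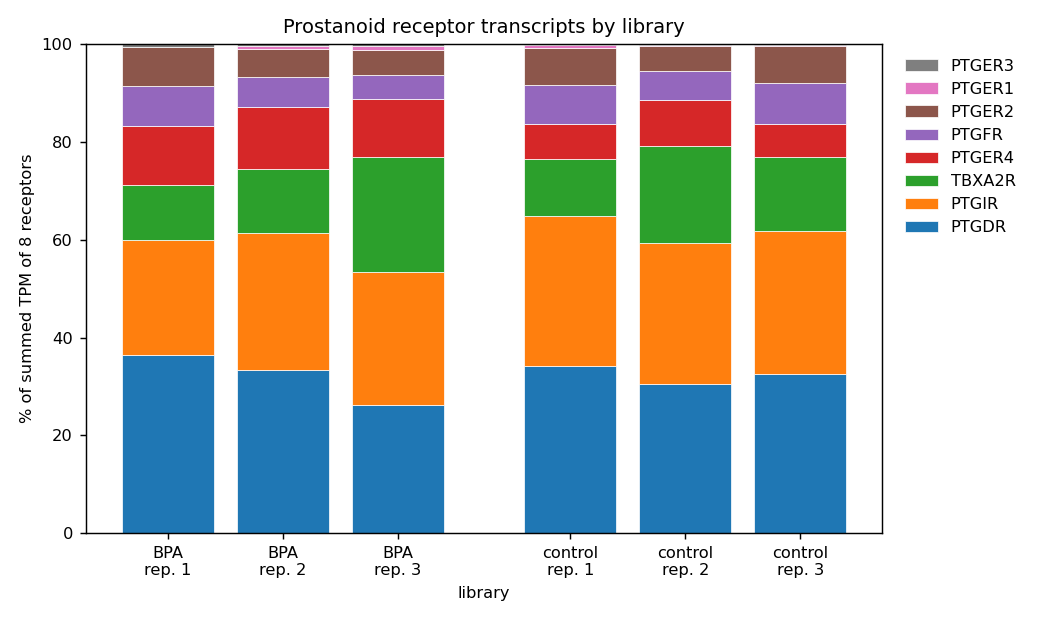
Share of each of 8 prostanoid receptor genes in their summed TPM (vertical axis, percent) in the 3 BPA libraries (left) and the 3 control libraries (right). The PTGER4 band takes 11.9% to 12.6% in BPA libraries and 6.73% to 9.40% in control libraries. The shares were computed after values had been seen and were not tested.

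Several of these values rested on BPA replicate 3. That library was the highest of the 6 libraries for 4 of the 9 genes and the lowest for 2, and it was at either end for 81.2% of all tested genes. Without it, 3 of the 9 genes, PTGS2, PTGER2 and PTGFR, lay below control without overlap (6.55% of all tested genes did), and HPGD above (14.5% did). Those 4 were also the genes with an unadjusted p under 0.05 in that comparison, where 5.57% of tested genes had one, and none passed adjustment (lowest adjusted p 0.577), against 0.00815% of all. With the first principal component as a covariate, a fit chosen after seeing the data, 6 of the 9 had an unadjusted p under 0.05. Of all tested genes 15.8% had one, and again none of the 9 passed (lowest limma adjusted p 0.131). The component was computed from the same values that were tested, those of the 9 genes included. The SEs and p-values of this fit therefore do not measure the spread between replicates. In that fit PTGS2 had a log2 change of -0.36 (SE 0.08), PTGFR of -0.24 (SE 0.07), PTGIS of -0.19 (SE 0.04) and PTGES of -0.13 (SE 0.05), while HPGD was at 0.29 (SE 0.09) and PTGES2 at 0.21 (SE 0.07). Limma's array weights put nearly all weight of the BPA group on replicate 2, and their estimation stopped before converging. With them 6 of the 9 genes passed adjustment, as did 37.7% of all tested genes.

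**Figure D4:**
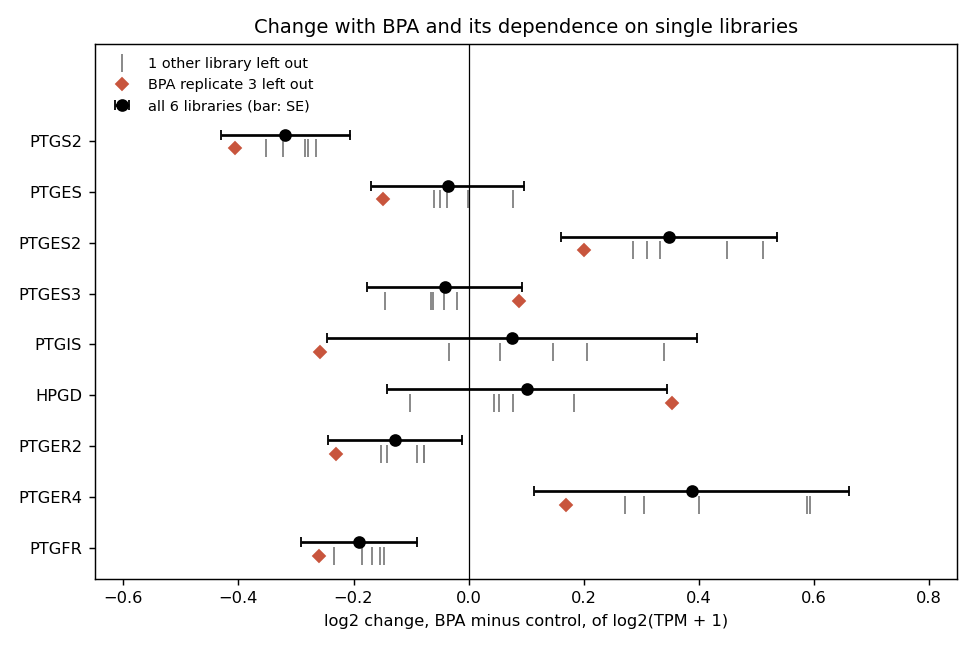
Log2 change with BPA (horizontal axis, BPA minus control) of the 9 genes with all 6 libraries (black points, bars for SE) and with single libraries left out (grey ticks, red diamonds for BPA replicate 3). PTGS2, PTGER2 and PTGFR stay below 0 and PTGES2 and PTGER4 above 0 whichever library is left out; PTGES, PTGES3, PTGIS and HPGD cross 0.

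The wider pathway was taken from a list of phospholipases, other synthases and receptors, transport and breakdown enzymes and the neighbouring lipoxygenase and epoxygenase branches. Of its genes 33 had a row and 21 were tested. By limma 0 passed in either direction and 0 had an unadjusted p under 0.05; 14 had a mean above control and 7 below, with a median log2 change of 0.09, beside 0.03 over all tested genes. The median was 0.0010 when libraries were centred on their medians. No tested gene of the list was without overlap, where 9.37% of all tested genes were. Under the expression filter, the receptor PTGER3 and the epoxide hydrolase EPHX2 lay above control without overlap, PTGER3 at 0.0685 to 0.108 TPM in BPA libraries against 0.0384 to 0.0573 TPM in control libraries and EPHX2 at 0.578 to 0.698 TPM in BPA libraries against 0.468 to 0.542 TPM in control libraries. The epoxygenase CYP2J2 lay below, at 0.711 to 0.787 TPM in BPA libraries and 0.835 to 0.885 TPM in control libraries. PTGER3, EPHX2 and CYP2J2 were not tested. The share of genes under the filter that lay without overlap was not computed, and precision at such levels is unknown.

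PTGR1, the reductase that acts after HPGD, was the most abundant enzyme of the wider list. It stood at 530, 504 and 403 TPM in BPA replicates 1, 2 and 3, against 455, 441 and 437 TPM in control replicates 1, 2 and 3. As with HPGD, BPA replicates 1 and 2 were highest and BPA replicate 3 lowest (log2 change 0.10, SE 0.12, limma adjusted p = 0.901). PTGR2, a related reductase, showed this too, at 11.5, 9.99 and 6.93 TPM in BPA replicates 1, 2 and 3 against 8.07, 8.05 and 8.38 TPM in control replicates 1, 2 and 3. In 40.9% of all tested genes BPA replicates 1 and 3 held opposite ends of the range. Without BPA replicate 3, 5 of the 6 tested genes for transport and breakdown lay above control without overlap, where 14.5% of all tested genes did. With all libraries 0 of the 6 did. Of the 21 tested genes of the whole list, 7 lay above control and 1 below (6.55% of all) without BPA replicate 3. This role was picked out after values were seen, and the count was not tested.

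Upstream, PLA2G4A, the cytosolic phospholipase that releases arachidonic acid, overlapped at 1.43 to 2.42 TPM in BPA libraries and 1.74 to 2.02 TPM in control libraries. Annexin A1 (ANXA1), a glucocorticoid-induced protein that restrains phospholipase activity, stood at 707, 566 and 364 TPM in BPA replicates 1, 2 and 3, beside 720, 584 and 662 TPM in control replicates 1, 2 and 3 (log2 change -0.31, SE 0.25). Prostaglandin D synthase PTGDS overlapped at 1.99 to 4.11 TPM in BPA libraries and 2.66 to 3.39 TPM in control libraries. HPGDS and the thromboxane synthase TBXAS1 stayed below 0.1 TPM in every library. The genes of this paragraph and the PTGR1 and PTGR2 values were chosen after values were seen.

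**Figure D5:**
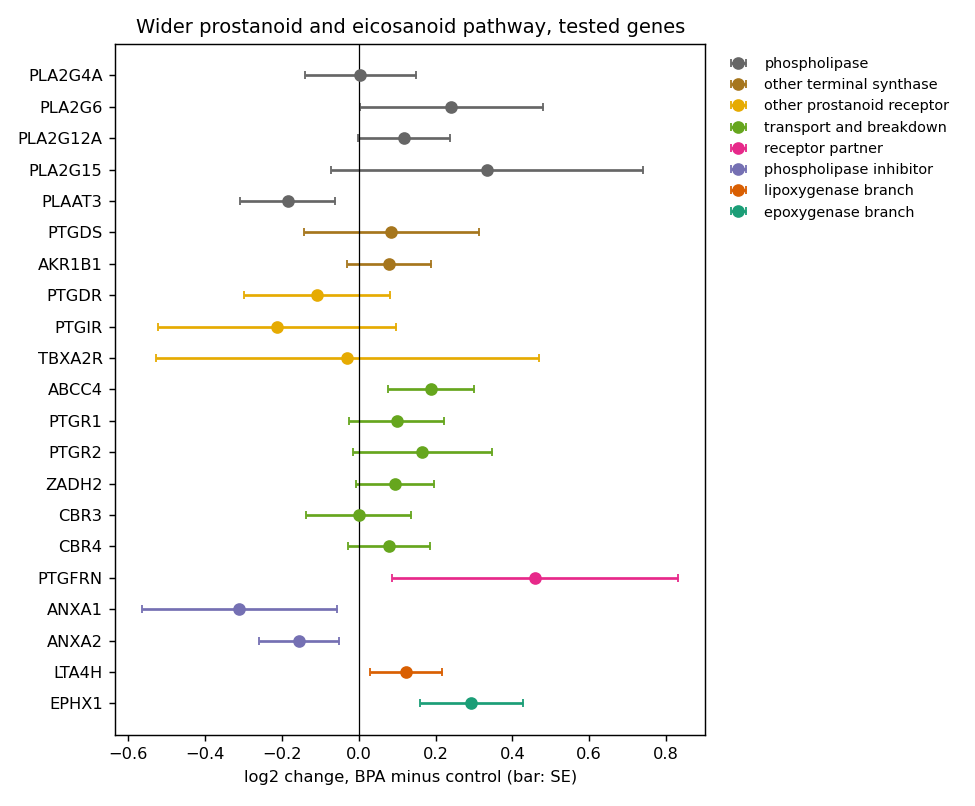
Log2 change with BPA (horizontal axis, BPA minus control, bars for SE) of the 21 tested genes of the wider pathway, coloured by role. The points run from -0.31 for ANXA1 to 0.46 for PTGFRN, and no gene passed the test.

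A list of genes linked to the control of PTGS2 had 13 tested members. It mixes inducers with inhibitors such as NFKBIA, the glucocorticoid receptor NR3C1 and DUSP1, so its direction as a whole has no single reading. At an unadjusted p under 0.05 there was 1, the interleukin-1 receptor IL1R1, against 3.58% of all tested genes. It lay above control, at 45.0, 43.1 and 39.9 TPM in BPA replicates 1, 2 and 3, against 30.3, 33.0 and 29.1 TPM in control replicates 1, 2 and 3. The groups stood apart, with a log2 change of 0.46 (SE 0.09, limma unadjusted p = 0.00287, adjusted p = 0.901). HIF1A, the oxygen-regulated factor, lay below control without overlap, at 3.35 to 3.81 TPM in BPA libraries against 3.86 to 4.62 TPM in control libraries (log2 change -0.18, SE 0.10). These 2 were the list's genes without overlap, as were 9.37% of all tested genes. With BPA 11 had a mean above control, as did 56.6% of all, and 2 below. The median log2 change was 0.25 with all libraries and 0.0071 without BPA replicate 3.

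A list of genes linked by name or role to cyclic AMP, the messenger of PTGER2 and PTGER4, had 7 tested members. They were CREM, NR4A1, PDE3A, FOS, CREB3L1, SIK1 and PER1, and their response to cyclic AMP in these cells was not tested. A mean above control was found for 6 of the 7, as for 56.6% of all tested genes, and a mean below for 1, CREM. The median log2 change of 0.41 was that of CREB3L1. By limma 0 of the 7 had an unadjusted p under 0.05, against 3.58% of all tested genes. The mean log2 deviation of the 7 from control was -0.21, 0.11 and 1.08 in BPA replicates 1, 2 and 3. In control replicates 1, 2 and 3 it was -0.28, 0.39 and -0.11. Without BPA replicate 3 the median log2 change was -0.06. Under the expression filter, the nuclear receptor NR4A2 lay above control without overlap, at 1.24, 1.02 and 1.12 TPM in BPA replicates 1, 2 and 3 against 0.762, 0.677 and 0.593 TPM in control replicates 1, 2 and 3. The phosphodiesterase PDE4B lay below it, at 0.107 to 0.126 TPM in BPA libraries and 0.142 to 0.165 TPM in control libraries. NR4A2 and PDE4B were not tested, and the share of genes under the filter that lay without overlap was not computed.

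Markers of several other cell types that make or answer prostaglandins were at or near 0. Leukocyte CD45 (PTPRC) was at 0 in 3 libraries and at most 0.00656 TPM. The mast cell receptor KIT was at 0 in 5 libraries, and the 2 mast cell markers with a row summed to 0.0154 to 0.0342 TPM in BPA libraries and 0.0155 to 0.0467 TPM in control libraries. All 6 endothelial markers stayed under 1 TPM, and their summed level was 0.580 to 0.806 TPM in BPA libraries and 0.456 to 0.687 TPM in control libraries. All 3 epithelial markers with a row also stayed under 1 TPM. CD14, CD68 and CSF1R were present. CD14 stood at 25.6 to 41.5 TPM in BPA libraries and 20.2 to 29.7 TPM in control libraries, and CD68 at 2.78 to 8.11 TPM in BPA libraries and 4.99 to 6.88 TPM in control libraries. CSF1R, the receptor of a macrophage growth factor, lay below control without overlap, against 3.98% of all tested genes. It stood at 1.67 to 2.27 TPM in BPA libraries and 2.36 to 2.63 TPM in control libraries (log2 change -0.19, SE 0.11, limma adjusted p = 0.901). Over the 6 libraries ITGAM reached at most 0.495 TPM, LYZ 0.164 TPM and MRC1 0.103 TPM. The 7 macrophage and leukocyte markers with a row summed to 31.2 to 52.2 TPM in BPA libraries and 28.6 to 39.7 TPM in control libraries, most of it CD14. The adipocyte markers were present in every library, in cells labelled as differentiated adipocytes: LPL at 408 to 576 TPM in BPA libraries and 396 to 492 TPM in control libraries, LEP at 125 to 145 TPM in BPA libraries and 157 to 167 TPM in control libraries, and ADIPOQ at 26.2 to 40.4 TPM in BPA libraries and 7.99 to 14.7 TPM in control libraries.

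The genes whose pattern over the 6 libraries was most like that of PTGS2, by root mean square distance between centred log2(TPM + 1) values, were SYT17 at 0.0602, RND1 at 0.0665, PDLIM1 at 0.0751, CNN1 at 0.0783 and FST at 0.0798. The median distance over 9996 tested genes, with those named by a locus number left out, was 0.270. A gene that did not vary over the libraries would lie at 0.187. CNN1, the smooth muscle calponin, stood at 199 ± 24.5 TPM in BPA libraries and 243 ± 14.0 TPM in control libraries (SD, n = 3 each). Likeness over 6 libraries is a description, and 3 other tested genes had exactly the library order of PTGS2. Smooth muscle and pericyte markers had 5 with a row, with KCNJ8 at 0 in 3 libraries. They summed to 1593 to 2292 TPM in BPA libraries and 1865 to 2177 TPM in control libraries, most of it ACTA2. CNN1 alone of them lay below control without overlap, against 3.98% of all tested genes. NOTCH3 and MYH11 overlapped with means above control, and ACTA2 and KCNJ8 overlapped with means below it. The part of these markers in the PTGS2 difference was not tested.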

How the data were processed

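Per the labels' protocols, column-purified RNA gave stranded mRNA libraries that were sequenced on an Illumina instrument. The authors deposited 1 table of log2 values, named as normalized log TPM. Raising 2 to each value and subtracting 1 gave a sum of 1000000 per library, so values were read as log2(TPM + 1). The sources used here do not name aligner, counting tool, build or annotation, so no coordinates are printed and the treatment of reads shared between gene copies is unknown. TPM keeps no read depth, so no counting interval can be given.

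Groups and replicate numbers came from sample titles. The 12277 genes whose log2(TPM + 1) averaged 1 or more were tested with limma 3.58.1 in R 4.3.3 (empirical Bayes with a trend, two-sided, no covariate; Benjamini-Hochberg over all tested genes, threshold 0.05), after a check on simulated data. Fold changes are differences of log2(TPM + 1). The genes and lists were chosen with earlier results of these data known. Besides the 9 genes, the rule named genes of the pathway, cyclic AMP and PTGS2 control lists with an unadjusted p under 0.05 or groups without overlap, and the 5 genes most like PTGS2; others were chosen after values were seen. The lists of other cell types cover adipocytes, stromal fibroblasts, leukocytes, mast cells, endothelium, smooth muscle and epithelium. Alternatives covered filters, pseudocounts, scaling, the variance model, array weights, a replicate block and each library left out; leaving out 2 libraries together and a covariate for the first component were added after seeing the data.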

Additional observations from a re-analysis of the deposited data

How the results depend on the processing

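With all alternatives the 9 genes gave 168 values beside those reported, of which 150 kept direction and side of the threshold, 12 turned direction and 6 newly passed. All 6 came from array weights, whose estimation stopped before converging. The weights were 6489 for BPA replicate 2 and 0.0306 to 1.24 for the others, so that 1 library stood for the BPA group. With them 4629 of all tested genes (37.7%) passed, with the pathway median at 0.14. The genes past the threshold numbered 0 with all libraries, 6 without filter, 4 with the first component as a covariate, 2 without BPA replicate 3 and control replicate 2, and from 0 to 1 with a library left out; none was among the 9 genes. The pathway median was 0.0010 with median centring and 0.0175 with quantile normalization, and 0.07 to 0.10 with a library left out. PTGIS turned to -0.0086 with median centring, -0.0208 with array weights, -0.13 without BPA replicate 3 and control replicate 2 and -0.19 with the first component. PTGES3 turned to 0.028, 0.0862 and 0.0503 in the last 3 of these. With a library left out, PTGIS ranged from -0.26 to 0.34, PTGES3 from -0.15 to 0.087, PTGES from -0.15 to 0.0773 and HPGD from -0.10 to 0.35. The causes were not tested. Deviations of same-numbered libraries from their group means correlated at 0.72, -0.44 and -0.23. With 1 component holding 79.8% of the variance, these values cannot tell whether replicate numbers pair the libraries. The main fit used no pairing. With the replicate block 0 genes passed and 264 had an unadjusted p under 0.05, against 439 without it, and PTGS2 stayed at -0.32 (unadjusted p = 0.0478). Depth is unknown, so the precision of PTGER2, PTGER4 and PTGFR, at 1 to 4 TPM, cannot be given.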
